A study of Homo sapiens with 5 samples.

Results

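The Hodgkin lymphoma cell lines, L428 and L591, were compared through their lists of DNase I hypersensitive peaks. Every peak that the authors listed for either line on chromosomes 1 to 22 was taken, which gave 48788 peaks, 22758 of L428 and 26030 of L591, out of 109692 peaks in the 5 lists of the series over all chromosomes. A peak was called line-only when it shared no base with any peak of the other line, and shared otherwise. The remaining lists, from L1236 (also Hodgkin lymphoma), Reh (pro-B lymphoblastic leukaemia) and Namalwa (Burkitt lymphoma), were used as an outside readout.

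DNase I cuts DNA most readily where nucleosomes have been displaced, and such hypersensitive sites mark active promoters, enhancers and other regulatory elements. Hodgkin and Reed-Sternberg cells derive from B cells of the germinal centre that have lost much of their B cell programme, and their growth is known to draw on constant NF-kB, JAK-STAT and AP-1 signalling. L591 is known as a line that carries the Epstein-Barr virus, whose proteins engage some of the same pathways, and L428 as a line without it.

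Neither line was treated, and each is 1 library of 1 established cell line (passage 7). DNase I acted on the nuclei for 3 min at 33 °C, at 6 U/ml for L428 and at 12 U/ml for L591, and fragments of 100 to 600 bp were sequenced. The other lines are also 1 library each at passage 7, labelled 6 U/ml for L1236 and Reh and 12 U/ml for Namalwa. The concentration for L591 and Namalwa lies outside the range of 1 to 10 U/ml that the protocol states. The protocol also states that PCR found a similar extent of digestion in all samples. With 1 library per line there was no replicate error and no test between lines, so the values below are differences between these libraries. The sequencing depth of each library is unknown. Intervals are exact Clopper-Pearson 95% intervals and cover counting error only. They treat the peaks of a list as independent, which neighbouring peaks need not be. An interval of a ratio that leaves out 1 is therefore no test between lines. Digestion, depth and cell line cannot be told apart in this design.

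The L591 list was longer and its peaks were wider. The median width was 320 bp in L428 (25th to 75th percentile 230 to 440 bp) and 450 bp in L591 (330 to 650 bp). Peaks of 1000 bp or more made up 1.5% of the L428 list and 7.76% of the L591 list. The L428 peaks covered 8.45 Mb of the genome (build hg18 throughout) and the L591 peaks 13.9 Mb. The widest peak of both lists started at nearly the same base of chromosome 16, at 44943261 in L428 (11150 bp) and at 44943221 in L591 (24390 bp).

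Of the L428 peaks, 7402 or 32.5% had no L591 peak (interval 31.9 to 33.1%). Of the L591 peaks, 11665 or 44.8% had no L428 peak (44.2 to 45.4%). Merging both lists gave 33257 separate regions, of which 14190 (42.7%) held peaks of both lines. These shares moved by several percentage points when overlap or width was defined differently, and L591 had the larger share in every such setting. The overlapping peaks were similar in number, 15356 of L428 and 14365 of L591, while the L591 list was the longer. With lists of equal length the shares were 36.1% in L428 and 40.6% in L591, a narrower gap. The part of list length in these shares was not tested.

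Line-only peaks were mainly the small ones. Their median width was 260 bp against 360 bp for shared peaks in L428, and 370 bp against 540 bp in L591. The authors' score, the area of a peak, has no common scale between libraries, so each peak was ranked within its own list and its area percentile used. The median percentile of line-only peaks was 30.3 in L428 and 32.3 in L591, against 61.2 and 67.2 for shared peaks. In the lowest 10% of the L428 list by area 59.6% of peaks were line-only, and in the highest 10% 3.12% (71 of 2275). In L591 the share went from 74.4% in the lowest 10% to 4.0% in the highest (of 2602). The largest peaks of either line were therefore nearly always present in the other.

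The L591 share was also the larger among peaks of the same width in bp. Among peaks over 300 bp and up to 400 bp, 29.2% of L428 peaks and 57.5% of L591 peaks were line-only, and among peaks over 1000 bp the shares were 2.45% and 11%. The same order held in each of the 7 width classes. Equal width was not equal rank, since in the overlapping pairs described below the L591 peak was a median of 140 bp wider. Counted from the lowest, area decile 6 of L428 had a median width of 350 bp and decile 3 of L591 340 bp. Width classes therefore set higher ranked L428 peaks against lower ranked L591 peaks. In decile 3 of both lists the gap was smaller, 49.5% in L428 against 65.1% in L591.

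**Figure D1:**
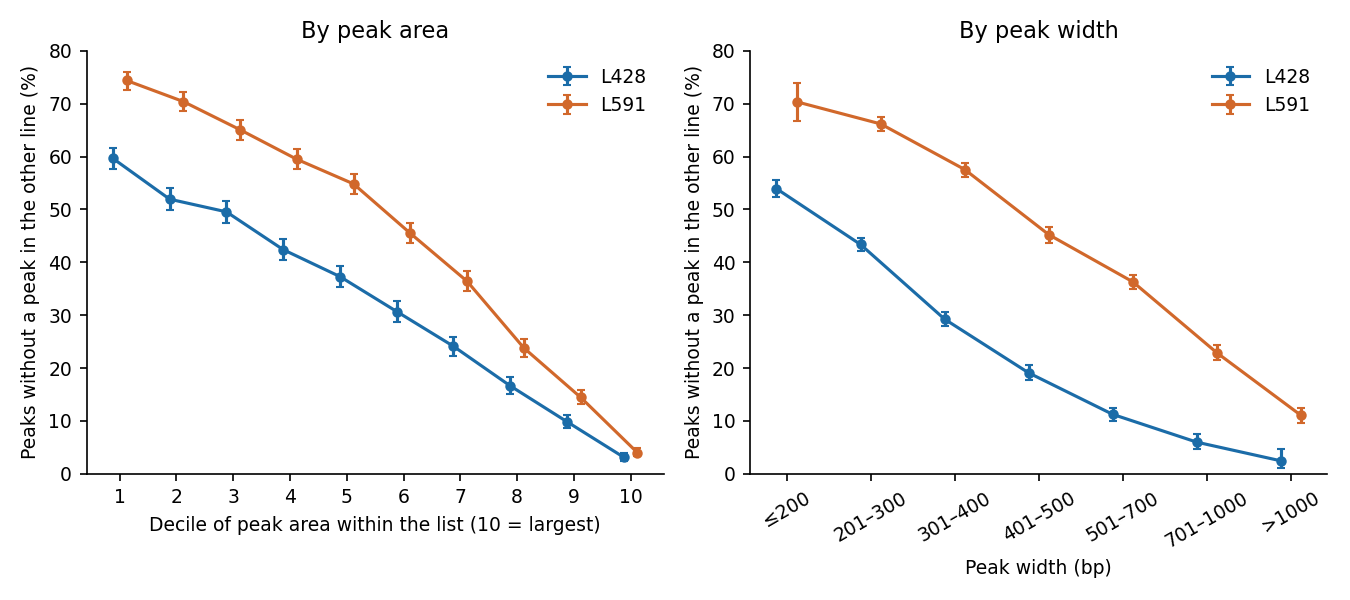
Share of peaks without a peak in the other line, by steps of 10% of peak area within each list (left) and by peak width (right). Points are shares in percent, bars are exact 95% intervals. The share falls from 59.6% to 3.12% in L428 and from 74.4% to 4.0% in L591 with rising area, and the L591 points lie above the L428 points in every width class.

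Most line-only peaks stood kilobases away from any peak of the other line. The median distance to the nearest peak of the other line was 16.9 kb for L428-only peaks and 24.8 kb for L591-only peaks. Within 1 kb lay 14.8% and 14.2% of them, and farther than 100 kb 19.2% and 20.8%.

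The largest line-only peaks are named by position, since no hg18 gene annotation was used here. They were chosen by rank, so their percentiles are a description. In L428 the highest was chr1:240454811-240455920, 1110 bp wide, at percentile 98.7 of its list. Its nearest L591 peak was 376 kb away, and L1236 also had a peak there. The next was chr16:84160651-84161710 at percentile 98.4, in the window of 1 Mb (1000000 bases) that holds IRF8, a transcription factor of germinal centre B cells. L1236 and Reh both had a peak at that place. The others of the leading 8 in L428 had percentiles from 96.4 to 97.7, among them chr19:4657641-4658550 (96.5) in the window of EBI3, which encodes a cytokine subunit induced by the Epstein-Barr virus. Another, chr12:25428611-25429980, lay only 161 bp from an L591 peak.

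In L591 the highest line-only peaks were a pair on chromosome 11, chr11:118943381-118944820 and chr11:118196061-118197270, both at percentile 99.3. None of the other 3 lines had a peak at the former, and all 3 had one at the latter. Both lie in the window of CXCR5, the receptor that guides B cells into follicles, a gene recognised there after the values were seen. Another of the leading 8 was chr9:36924651-36926300, 1650 bp wide at percentile 98.0, in the window of PAX5, the factor that maintains B cell identity. L1236 also had a peak there. The leading 8 in L591 ranged from percentile 97.9 to 99.3.

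The lists of the other lines gave a readout that the choice of line-only peaks had not used. A peak of L1236, Reh or Namalwa overlapped 29.8% of L428-only peaks and 38.1% of L591-only peaks. Among shared peaks the value was 76.5% in both lines. The other Hodgkin line, L1236, had a peak at 19% of L428-only and 20.9% of L591-only peaks, which are similar shares. Reh had a peak at 14.6% of L428-only and 24.2% of L591-only peaks, and Namalwa, whose list held 5643 peaks on these chromosomes, at 1.63% and 3.66%. L591-only peaks were wider (370 bp against 260 bp), and the part of width in these shares was not tested.

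Among line-only peaks in the highest 10% by area, 30 of 71 L428-only peaks (42.3%) and 63 L591-only peaks (60.6%) were present in another line, beside 89.3% and 94.9% of all peaks of that rank. The median widths of these line-only peaks were 720 bp in L428 and 1120 bp in L591. Reh had 8 of the former and 33 of the latter, and L1236 had 27 and 51.

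**Figure D2:**
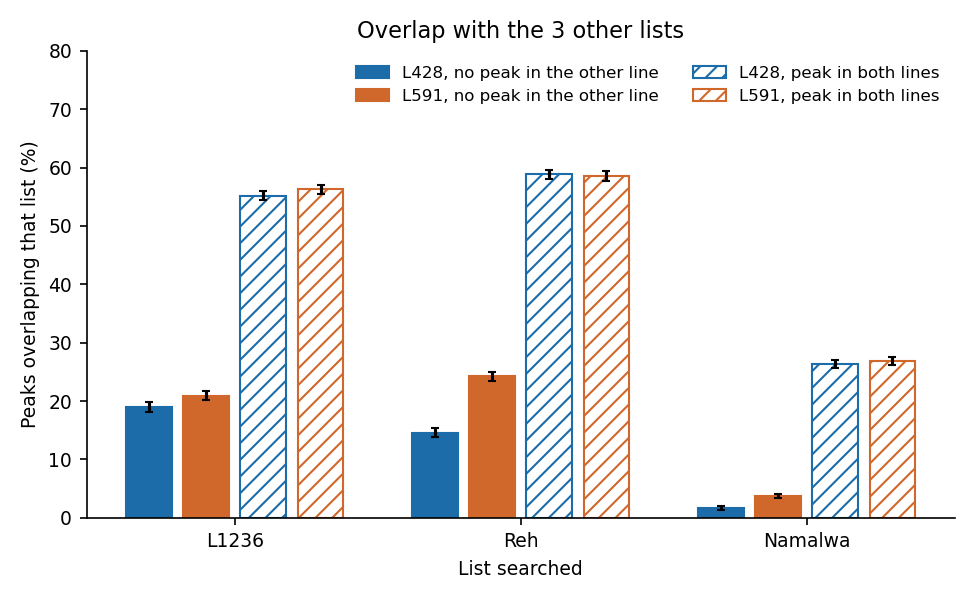
Share of line-only and shared peaks of L428 and L591 that overlap a peak of L1236, Reh or Namalwa, in percent, with exact 95% intervals. Shared peaks lie near 55 to 59% in L1236 and Reh in both lines, and among line-only peaks the widest gap between the lines is in Reh, 14.6% against 24.2%.

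To compare shared peaks, those that overlapped exactly 1 peak of the other line were set out as 13029 pairs, which held 84.8% of the shared L428 peaks and 90.7% of the shared L591 peaks. The rest were mostly wide L591 peaks that spanned several L428 peaks: 1067 L591 peaks lay over 2 or more L428 peaks (up to 5), and 169 L428 peaks lay over 2 or more L591 peaks (up to 3). Within pairs the L591 peak was wider in 10556 (81.0%) and the L428 peak in 2175 (16.7%). The median widths were 360 bp in L428 and 520 bp in L591, and the median difference was 140 bp (25th to 75th percentile 30 to 280 bp). The L428 peak lay wholly inside the L591 peak in 67.2% of pairs. The centres were a median of 45 bp apart, so the same places were marked with wider boundaries in L591.

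Ranks in pairs differed little in the median and more widely from pair to pair. The percentile in L428 minus that in L591 had a median of -1.63 points and a 25th to 75th percentile range of -16.1 to 11.4 points. The difference was at most 10 points in 5245 pairs (40.3%). The percentile was at least 25 points higher in L428 in 1789 pairs (13.7%) and at least 25 points higher in L591 in 2150 pairs (16.5%). Which direction was more frequent depended on the ranking: with percentiles taken within pairs the shares were 15.3% for L428 and 14.7% for L591, and with lists of equal length 15.9% and 13.8%. At the threshold, a pair at chr12:4094421 stood just inside with a difference of 25 points.

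Peak width moved with these rank differences. The ranked score, area, itself went closely with width (Spearman 0.93 in L428 and 0.90 in L591). Widths of pairs chosen by area rank are therefore a description and no separate evidence. In the pairs ranked at least 25 points higher in L428 the median widths were 400 bp in L428 and 330 bp in L591. In those ranked higher in L591 they were 230 bp and 610 bp, and the L591 peak was the wider in 100% of them. When area per base was ranked in place of area, 67.4% of the former and 60.7% of the latter still differed by at least 25 points, and 7.15% and 9.49% changed sign.

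Pairs of similar rank were mostly large peaks, with median percentiles of 77.7 in L428 and 78.6 in L591, and the other lines held more of them. L1236 had a peak at 65.4% of pairs within 10 points, at 38.3% of pairs higher in L428 and at 50.1% of pairs higher in L591. For Reh the shares were 68.8%, 26.8% and 55.1%, and for Namalwa 38.9%, 6.15% and 16.8%. Over all pairs the shares were 54.9% for L1236, 56.6% for Reh and 25.3% for Namalwa, so the pairs higher in L591 lay near the share of all pairs in L1236 and Reh, and the pairs higher in L428 below it in all 3. The part of peak size in these shares was not tested.

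The pair with the largest difference toward L428 was chr21:43446631-43447280, at percentile 96.3 and 650 bp in L428 and at percentile 4.4 and 230 bp in L591. Others were chr3:197430561-197431340 (93.3 in L428 and 3.7 in L591) and chr7:157131061-157131790 (89.9 and 3.0). Toward L591 the largest was chr5:60531631-60532760, at percentile 97.5 and 1130 bp in L591 and at percentile 1.9 and 150 bp in L428. It was followed by chr10:71784161-71785900 (3.5 in L428 and 97.4 in L591) and chr20:4742771-4744250 (1.5 and 95.3). These extremes paired a peak near the foot of 1 list with a large one in the other.

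**Figure D3:**
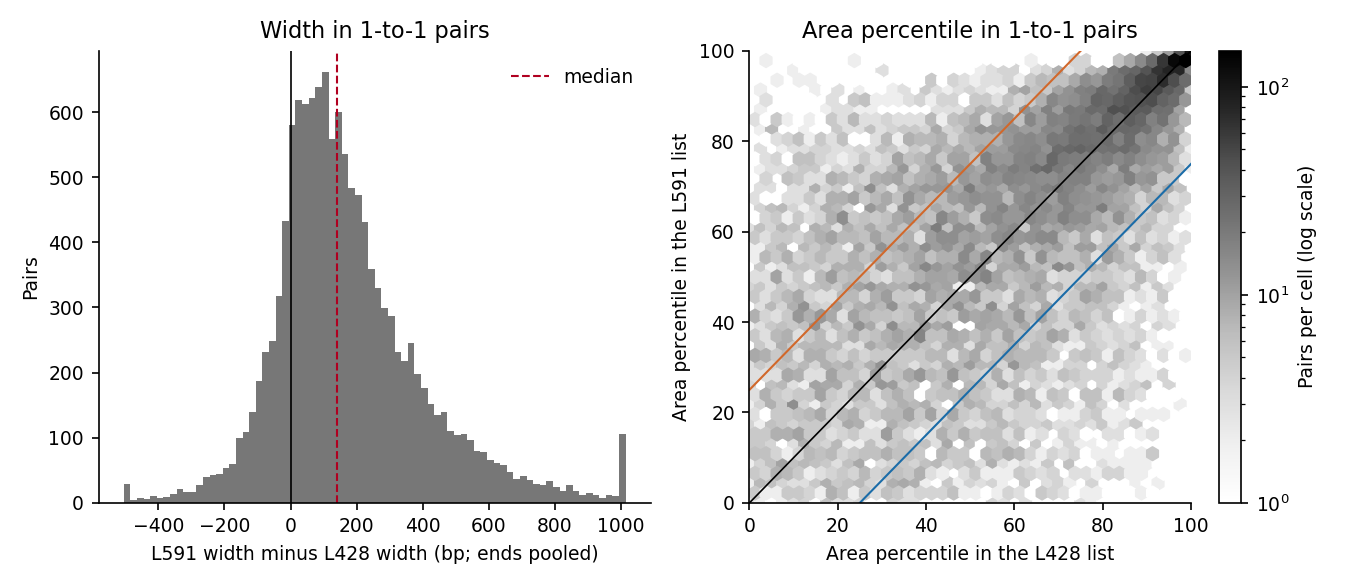
Width and rank in the 13029 pairs of overlapping peaks. Left, number of pairs by L591 width minus L428 width in bp, with values far from 0 pooled at both ends and the median of 140 bp dashed. Right, area percentile in L591 against that in L428, shaded by number of pairs on a log scale; the black line marks equal rank, and the blue and orange lines mark a rank 25 points higher in L428 and in L591.

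The differences between the lines were spread unevenly over chromosomes. A chromosome's share of the L428 list divided by its share of the L591 list, a ratio in which list length cancels, was highest for chromosomes 21 (1.31), 7 (1.3) and 17 (1.28). It was lowest for chromosomes 13 (0.36) and 18 (0.61), followed by 11 (0.76). L591 had the larger line-only share on 19 of 22 chromosomes, and chromosomes 7, 17 and 21 were the exceptions.

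On chromosome 13 L428 had 143 peaks and L591 452, and 75.7% of those L591 peaks were line-only. The pairs there had a median difference of -27.8 points, so the L428 peaks that were present also ranked lower. On chromosome 18 the line-only share of L591 was 67.7% and the median pair difference -12.7 points, and on chromosome 11 these were 52.7% and -12.0 points. Chromosome 17 had the highest median pair difference, 5.22 points. Across the 22 chromosomes the ratio of shares and the median pair difference had a Pearson correlation of 0.91 and a Spearman correlation of 0.87. Without chromosomes 13 and 18 both were 0.82. Both measures come from the same pair of libraries, so this is a description only.

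**Figure D4:**
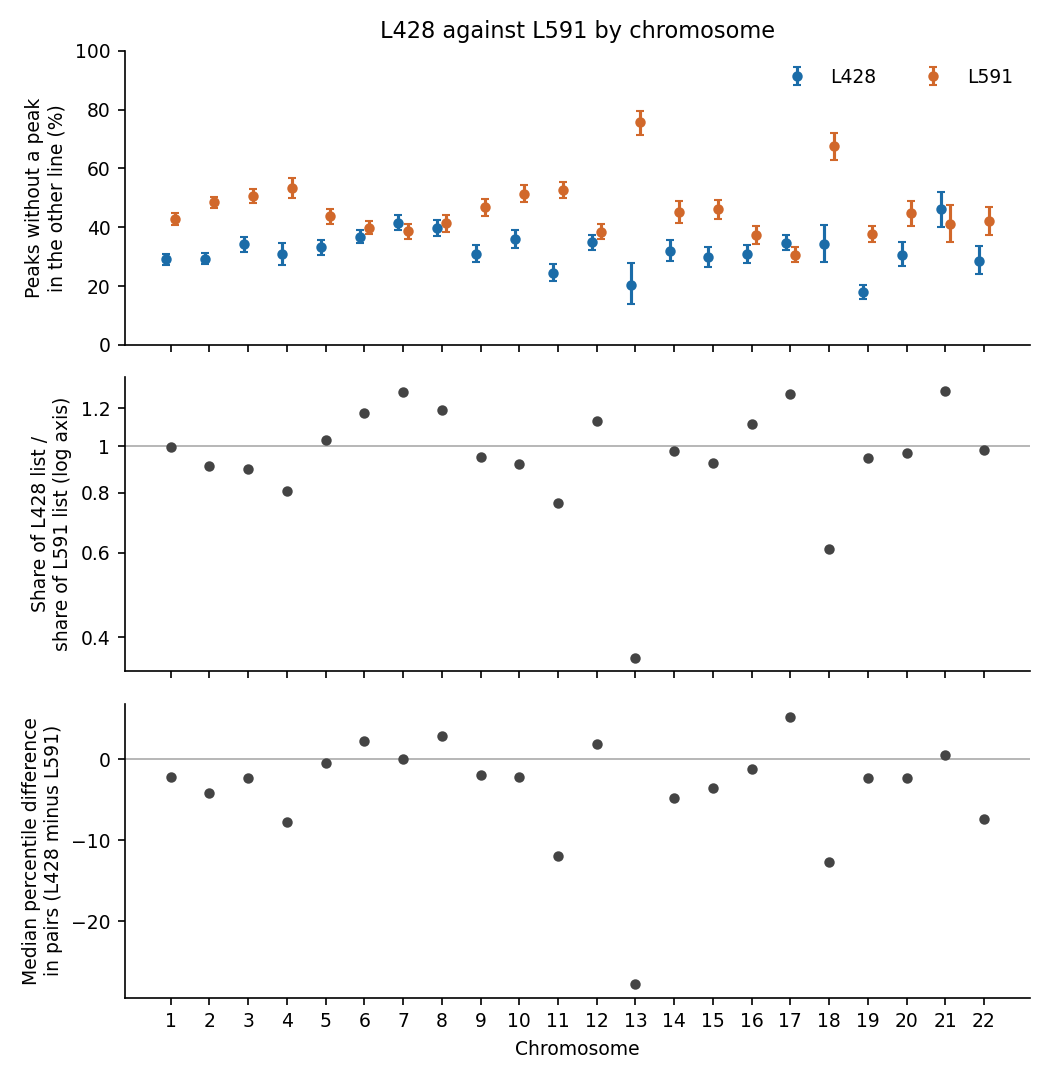
Line-only share of each line in percent with exact 95% intervals (top), share of the L428 list divided by share of the L591 list on a log axis (middle), and median percentile difference in pairs, L428 minus L591 (bottom), for chromosomes 1 to 22. Chromosome 13 is lowest in both lower panels (0.36 and -27.8 points), and chromosomes 7, 17 and 21 are those where the L428 share in the top panel is the larger.

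Within chromosome 7 the L428 excess was densest in 1 stretch, the longest run of 5 Mb windows with a ratio of at least 1.5, a rule set after its values were seen. From 115 to 160 Mb, L428 had 543 peaks and L591 223, a ratio of shares of 2.79 (interval 2.38 to 3.27). In this stretch 338 L428 peaks and 25 L591 peaks were line-only, and the 181 pairs had a median difference of 26.8 points. Of these pairs 97 ranked at least 25 points higher in L428 and 3 in L591. From 0 to 115 Mb the ratio was 0.99 (0.90 to 1.08), with 929 and 1076 peaks and a median pair difference of -4.19 points over 540 pairs. Each of the 9 windows of 5 Mb in the stretch had a ratio between 1.61 and 5.43. The 23 windows below it were mixed, with ratios from 0.33 to 1.57 and median pair differences from -38.6 to 17.7 points.

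In the 5 Mb window of chromosome 11 with the largest excess of L591 peaks by number, from 115 to 120 Mb and also picked after its values were seen, the direction was the opposite, with 52 peaks in L428, 4 of them line-only. The share was 2.51 times higher in L591 (1.82 to 3.51), and 28 of 42 pairs ranked at least 25 points higher in L591. By ratio the window from 100 to 105 Mb was farther toward L591, with 8 and 34 peaks (3.72 times). Over the whole genome 432 windows of 5 Mb held at least 40 peaks. In 18 of them the share was at least 2 times higher in L428, 8 of which were on chromosome 7. In 19 it was at least 2 times higher in L591, 6 of them on chromosome 13, 3 on chromosome 11 and 2 on chromosome 7 below the stretch. The median pair difference pointed the same way as the ratio in 17 of the 18 and in 18 of the 19. In these cell lines the number of DNA copies and the accessibility of each copy cannot be told apart from peak lists.

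At the scale of 1 Mb, 941 windows held at least 20 peaks of both lines together. The share was at least 2 times higher in L428 in 73 of them (7.76%) and at least 2 times higher in L591 in another 73 (7.76%). The leading windows toward either line were picked by this ratio, so their ratios and intervals are a description. The largest ratio toward L428 was at 124 to 125 Mb of chromosome 7, inside the stretch above, with 37 and 4 peaks, a ratio of 10.6 (3.8 to 40.9). The next was the window of GATA3 on chromosome 10. Windows on chromosome 14 from 36 to 37 Mb (24 and 4 peaks), on chromosome 17 from 29 to 30 Mb (20 and 4) and on chromosome 6 (18 and 4) followed, with another window of chromosome 7. All of these but that on chromosome 6 met the minimum of 20 peaks through L428 alone.

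Toward L591 the leading window was at 14 to 15 Mb of chromosome 9, with 24 peaks in L591 and 0 in L428. Against a floor of 3 peaks the share was at least 6.99-fold higher in L591. This window was recognised, after its values were seen, as that of NFIB, a transcription factor of the nuclear factor I family, and L1236 had 13 peaks in it. Windows on chromosome 13 from 29 to 30 Mb (2 and 23 peaks) and on chromosome 2 from 52 to 53 Mb (2 and 22) came next. The window of BIRC3 on chromosome 11 was also among the leading 6. Each of these 6 windows met the minimum of 20 peaks through L591 alone.

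One window held more peaks than any other in both lines, the window of chromosome 6 where TNFAIP3 lies. TNFAIP3 encodes A20, an enzyme that shuts down NF-kB signalling and that is often inactivated in Hodgkin lymphoma. L428 had 170 peaks there and L591 89, a ratio of shares of 2.18 (1.68 to 2.86). The next densest window of L428, at 7 to 8 Mb of chromosome 17, had 68. In the TNFAIP3 window 88 L428 peaks and 7 L591 peaks were line-only, and 0 of these 88 overlapped a peak of L1236, Reh or Namalwa. The 74 pairs had a median difference of 27.1 points toward L428. Most of the peaks were packed into consecutive bins of 100 kb with at least 10 L428 peaks each, bases 138000001 to 138400000, with 159 peaks of L428, 81 of L591, 23 of L1236, 3 of Reh and 1 of Namalwa. The cluster was thus dense in both lines and denser in L428.

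The windows of 8 lists of genes known in B cells and Hodgkin lymphoma were then counted. Each window is the whole Mb, or pair of Mb, of hg18 in which a gene lies, and it also holds the genes beside it, so a count describes the neighbourhood. For some genes named below the 5 Mb window was shifted the same way. It had 26 and 67 peaks (0.44) for EBF1, 37 and 18 (2.35) for BACH2 and 8 and 34 (0.27) for BIRC3. Of 54 windows, 49 held at least 20 peaks of both lines together. Some, such as those of GATA3, IRF8, EBF1 and BIRC3, met this minimum through 1 line alone. The share was at least 1.5 times higher in L428 in 9 of the 49 and in L591 in 10. Over all 941 windows the same held for 155 (16.5%) toward L428 and 163 (17.3%) toward L591, so the gene windows stood near the background. Their median ratio of L428 to L591 was 0.94, beside 1.01 for all windows. Window size was not matched in this comparison. Each of the 941 windows is 1 Mb, while some gene windows, such as those of PAX5 and REL, span a pair of Mb. By list the median was 0.74 for genes that respond to the Epstein-Barr virus, 0.84 for NF-kB and 0.90 for B cell identity. It was 0.95 for AP-1, 1.01 for regulators of other lineages and 1.06 for Hodgkin surface proteins and chemokines. Germinal centre and plasma cell regulators had 1.37 and JAK-STAT 1.38.

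Of the 8 B cell identity windows with at least 20 peaks, 2 were at least 1.5 times higher in L591, 0 in L428, and 6 lay between. The window of EBF1, the factor that specifies the B lineage, had 8 peaks in L428 and 26 in L591, a ratio of 0.35 (0.14 to 0.80). Of the 26 L591 peaks 20 were line-only, while the 6 pairs had a median difference of 2.60 points. Of these 6 pairs, 0 differed by 25 points or more, and the ratio was 0.53 in the upper 50% by area. The window of MS4A1, which encodes the B cell surface protein CD20, had 19 and 37 peaks (0.59, interval 0.32 to 1.05), an interval that includes 1. The PAX5 window had 42 and 61 peaks (0.79). BLK, a kinase of B cell receptor signalling, had 13 and 6 peaks in its window, and POU2AF1, a coactivator of antibody genes, had 2 and 4, both too few for the count.

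Among 6 windows of germinal centre and plasma cell regulators, 3 were at least 1.5 times higher in L428 and 0 in L591, with a median ratio of 1.37. IRF8 had 23 peaks in L428 and 6 in L591 (4.38, interval 1.74 to 13.2), with 17 line-only peaks in L428, 9 of them present in another line. BACH2, a repressor that keeps B cells from becoming plasma cells, had 31 and 15 (2.36, 1.24 to 4.71), and its 12 pairs had a median difference of 17.9 points. BCL6, the repressor that defines germinal centre B cells, had 13 and 5 peaks, below the minimum of 20. Reh, a line from an earlier stage, had 58 peaks in the IRF8 window and 29 in that of BACH2.

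The 9 NF-kB windows were divided, with 2 toward L428, 3 toward L591 and 4 between. Those toward L428 were TNFAIP3 and TRAF1, an adaptor of tumour necrosis factor receptors that NF-kB induces, with 30 and 20 peaks (1.72, 0.94 to 3.19; 1.46 in the upper 50% by area, within 1.5-fold). Those toward L591 were REL, BCL3 and BIRC3. REL, an NF-kB subunit gained in many Hodgkin lymphomas, had 37 and 67 peaks (0.63, 0.41 to 0.96; within 1.5-fold at 0.73 in the upper 50% by area and 0.67 by covered bp), with 39 line-only peaks in L591 and 6 in L428. BIRC3, an inhibitor of cell death induced by NF-kB, had 4 and 20 peaks (0.23, 0.06 to 0.68), and 12 of its 17 L591-only peaks were present in another line. BCL3, a nuclear partner of NF-kB subunits, had 12 and 25 (0.55, 0.25 to 1.13; 0.73 in the upper 50% by area, within 1.5-fold). NFKB1, which encodes the p50 subunit, had 5 and 9 peaks, below the minimum of 20. Pair ranks did not all follow these counts. The median pair difference was 10.8 points for TRAF1, 0.50 for REL, 2.37 for BCL3 and -1.44 for BIRC3 (3 pairs). Pairs at least 25 points higher in L428 and in L591 numbered 0 and 2 for TRAF1 and 5 and 3 for REL. For BCL3 they numbered 2 and 2, and for BIRC3 0 and 1.

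The 6 JAK-STAT windows had 3 toward L428, 0 toward L591 and a median ratio of 1.38. STAT6, the transcription factor of interleukin 4 and 13 signalling, had 41 and 22 peaks (2.13, 1.24 to 3.76), and 14 of its 19 L428-only peaks were present in another line. SOCS1, an inhibitor of JAK kinases, had 63 and 38 (1.90, 1.25 to 2.92), with 32 line-only peaks in L428 and 9 in L591. The window of STAT3 and STAT5A had 57 and 42 (1.55, 1.02 to 2.37), and its ratio was below 1.5 with lists of equal length (1.39), in the upper 50% by area (1.24) and by covered bp (1.45). The median pair differences were -0.43 points in the SOCS1 window and 0.21 points in that of STAT3 and STAT5A. Of the 25 pairs in the SOCS1 window 5 ranked at least 25 points higher in L428 and 3 in L591, and of the 29 in that of STAT3 and STAT5A 3 and 2 did. The window shared by JAK2, CD274 and PDCD1LG2, of a kinase and a pair of immune checkpoint ligands on chromosome 9, had 37 and 53 peaks (0.80).

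Of 4 AP-1 windows only that of FOS and BATF passed 1.5-fold, toward L591, with 21 and 42 peaks (0.57, 0.32 to 0.99). It held 25 L591-only peaks, of which the largest, chr14:75050101-75052040, stood at percentile 97.5. The window of ATF3 and BATF3 had 31 and 33 peaks (1.07), and that of JUNB had 33 and 40 (0.94).

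Among the 7 windows of Hodgkin surface proteins and chemokines, 2 were toward L591 and 0 toward L428. These were the windows of CD80 and CD86, both ligands that costimulate T cells, which lie near each other on chromosome 3. CD86 had 23 and 54 peaks (0.49, 0.29 to 0.81), with 34 L591-only peaks and a median pair difference of -14.5 points. CD80 had 18 and 35 (0.59, 0.31 to 1.07). TNFRSF8, which encodes the Hodgkin marker CD30, had 41 and 36 (1.3, 0.81 to 2.10).

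In the 4 windows of regulators of other blood lineages, GATA3 and ID2 differed in opposite directions. GATA3, a T cell transcription factor that Hodgkin cells are known to express, had 25 peaks in L428 and 3 in L591, a ratio of 9.53 (2.91 to 49.3). The ratio moved with the setting, to 25 with lists of equal length, 14.9 in the upper 50% by area and 15.5 by covered bp, all toward L428. Each of these ratios rests on at most 3 L591 peaks, so its size is uncertain. Of the 22 L428-only peaks there 7 were present in another line, and the window held 19 peaks of L1236 and 0 of Reh. ID2, which blocks B cell transcription factors, had 15 and 34 peaks (0.50, 0.26 to 0.95), with 20 L591-only peaks and 0 L428-only peaks. TCF7, a T cell factor, had 19 and 25 (0.87).

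Of 5 windows of host genes that respond to the Epstein-Barr virus, with a median ratio of 0.74, 1 was toward L591 and 0 toward L428. It was CR2, the receptor through which the virus enters B cells, with 11 and 19 peaks (0.66, 0.28 to 1.46), an interval that includes 1. In the upper 50% by area its ratio was 0.73, within 1.5-fold. EBI3 had 32 and 25 (1.46, 0.84 to 2.58), and SLAMF1, a surface receptor of activated lymphocytes, 18 and 29 (0.71, 0.37 to 1.32).

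**Figure D5:**
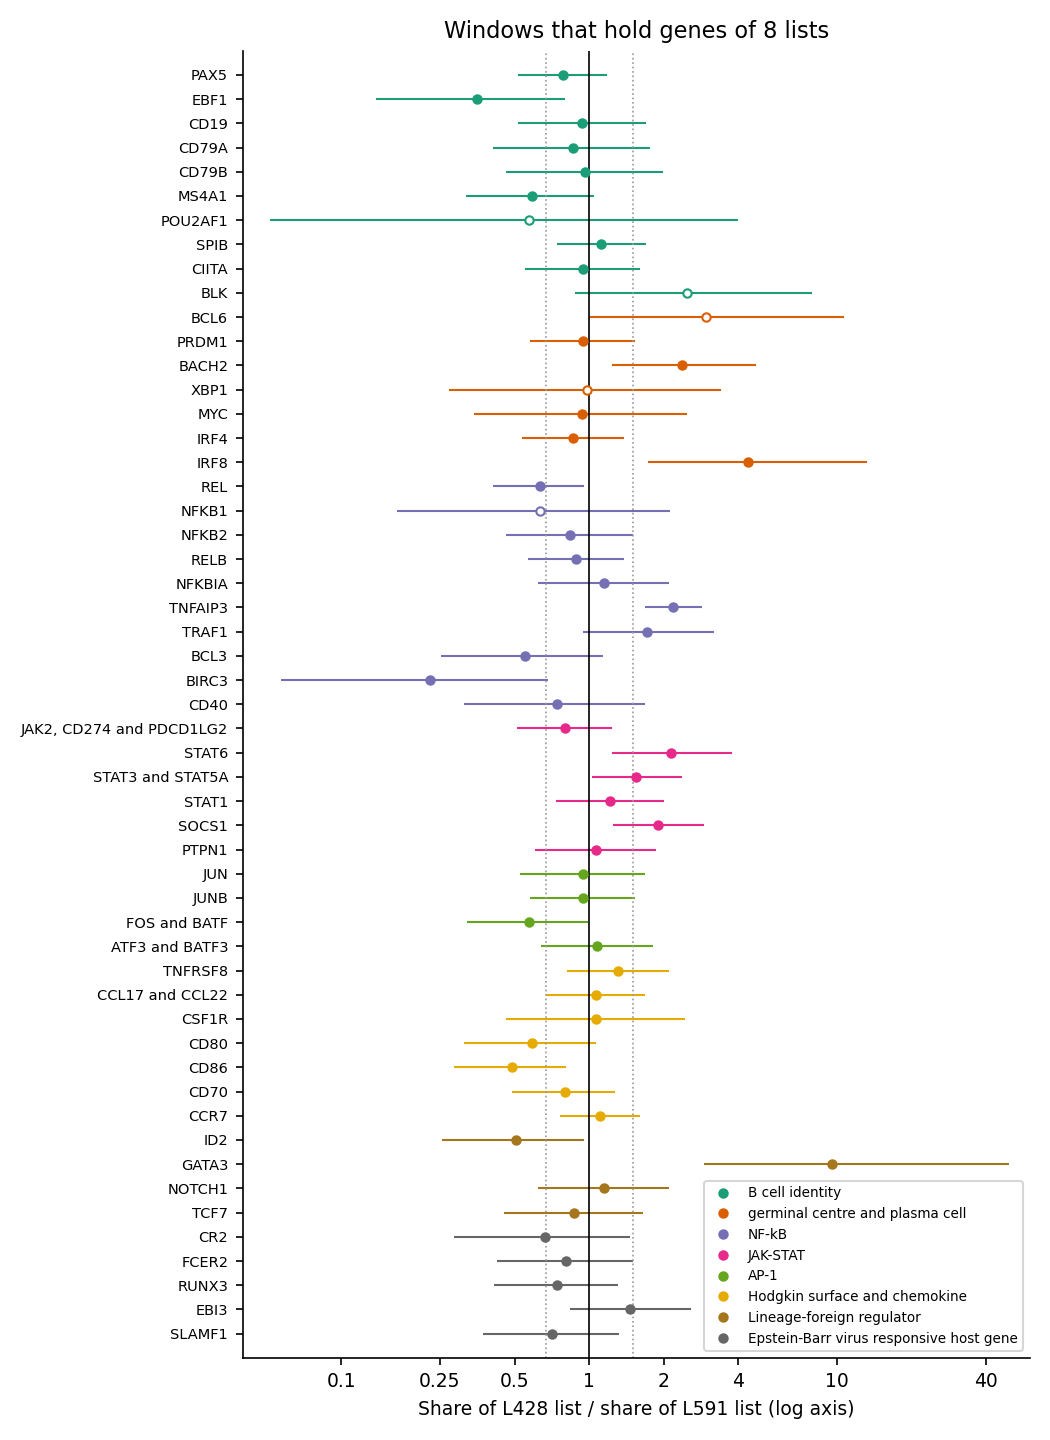
Share of the L428 list divided by share of the L591 list in the gene windows, on a log axis, with exact 95% intervals; hollow points have fewer than 20 peaks and dotted lines mark 1.5-fold either way. GATA3 is farthest to the right (9.53) and BIRC3 farthest to the left (0.23), and most intervals cross 1.

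Line-only peaks also came in runs. A run was counted where at least 5 consecutive regions of the merged list belonged to 1 line only, with neighbours at most 50 kb apart. L428 had 96 runs with 616 regions (8.32% of its line-only peaks) and L591 232 runs with 1592 regions (13.6%). Of all merged regions 22.3% were L428-only and 35.1% L591-only, and a larger share gives more runs by itself. Whether line-only peaks of L591 were more clustered was not tested. The longest runs of L428, of 14 regions, were chr1:110117931-110178460 and chr14:36483701-36665230. The former lies in the window of CSF1, a macrophage growth factor, recognised after its values were seen, and 6 of its regions had a peak in L1236. A run of 12, chr10:8407411-8498690, lay in the GATA3 window, with 5 regions present in L1236. The next, of 11 regions, was chr2:163074301-163118130, level in length with runs on chromosomes 7 and 21, and 0 of its regions were present in another line.

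The longest runs of L591 had 19 regions, chr2:25440131-25678790 and chr9:14160931-14369670, the latter in the NFIB window. A run of 18, chr5:158179861-158454670, lay in the EBF1 window, where L1236 had a peak at 0 of its regions and Reh at 3. A run of 17 was at chr2:52473321-52538890. Among the regions in runs, 24.4% in L428 and 29.3% in L591 had a peak in another line, beside 29.8% and 38.1% of all line-only peaks.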

How the data were processed

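DNase-seq peak lists of L428 and L591, 1 library each, were compared, and the lists of L1236, Reh and Namalwa served as a readout. Reads were aligned to hg18 with Bowtie 1.00, per the submitters' processing notes; no source used here gives the peak caller or its threshold. Each deposited list gives peak bounds in bins of 10 bp, from reads elongated to 146 bp per the file columns, and the authors' score, the area of a peak. The score has no stated scale, so it was turned into percentiles within a list. Its Spearman correlation with width was 0.93 in L428 and 0.90 in L591.

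Peaks of chromosomes 1 to 22 were used, and overlap meant at least 1 shared bp. Ratios of shares carry exact binomial intervals. Analyses ran in Python 3.11.15 with numpy 2.4.6, pandas 2.3.3 and scipy 1.17.1, and the overlap code was tested on simulated lists. Named items were the 8 largest line-only peaks per line, the 6 largest pair differences and windows per direction (with examples printed) and the 4 longest runs. Gene windows were printed from 1.5-fold, or else the 3 farthest from 1, along with a few of each list for comparison; 1 window is in the counts and not reported here. Gene windows were placed in hg18 from general knowledge; the symbols matched their chromosome in RefSeq GRCh38.p14, used for names only. The members and gene lists were chosen with earlier results of these data known. The growth notes spell 1 Hodgkin line differently from its sample label; the label was used. No sequence is printed.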

Additional observations from a re-analysis of the deposited data

Results flagged for a closer look

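Peaks outside chromosomes 1 to 22 entered no comparison above. On chromosome X, L428 had 530 peaks, of which 36% (interval 31.9 to 40.3%) had no L591 peak, with a median width of 300 bp. L591 had 582 peaks there, of which 272 (46.7%, 42.6 to 50.9%) had no L428 peak, with a median width of 430 bp. The mitochondrial chromosome had 2 peaks in L428 and 2 in L591, and each overlapped a peak of the other line.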

How the results depend on the processing

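L591 had the larger line-only share in every setting. With centres at most 250 bp apart as the overlap the shares were 38.8% in L428 and 47.3% in L591, with peaks cut to 200 bp about the centre 41.7% and 49.4%, with lists of equal length 36.1% and 40.6%, and with peaks up to 200 bp apart counted as shared 31.0% and 42.7%. With the upper 50% of peaks by area per bp L428 had 34.2%, and by area L591 had 42.8%. Pairs at least 25 points higher in L428 were 14.9% when ranked by width, 15.3% with percentiles within pairs, 12.0% with merged regions and 15.9% with equal lists, and at 40 points 6.36%. Those higher in L591 were 19.8% per bp, 14.7% within pairs and 13.8% with equal lists, and at 40 points 7.48%. Windows at least 2 times higher numbered 22 for L428 and 31 for L591 at 5 Mb (20 or more peaks), 14 and 14 with at least 40 peaks, and 27 and 24 in the upper 50% by area. Line-only peaks present in another line were 44.8% and 60.3% in the upper 50% by area, and 27.8% and 35.5% when more than 1 kb from the other line's peaks. With gaps of at most 20 kb L591 had fewer runs, 124 in place of 232. The remaining 16 of 46 values kept within 1.5 times (counts) or their interval or spread (others). For the 30 windows and stretches at least 1.5-fold apart, settings chosen after seeing the data (equal lists, upper 50% except for IRF8, where it left L591 without a peak, and covered bp) turned the direction in 1, POU2AF1, whose ratio was 0.57 over 6 peaks and 1.14 in the upper 50%. The causes were not tested. No paired analysis was possible because each line has 1 library, and no replicate could be left out. Depth is unknown, so the absence of a peak is no sign that a site was closed.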
